A study of Mus musculus with 24 samples.

Results

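The livers of 2 mouse lines, each lacking a different single-copy phenylalanine tRNA gene, were compared with each other. One line lacked tRNA-Phe-2-1 (tRNA-Phe-2-1-/-) and the other lacked tRNA-Phe-3-1 (tRNA-Phe-3-1-/-), with 3 livers each, 6 of the 24 samples in the series, taken by their titles. RNA-seq of liver and brain had been made from male wild type (WT) mice and from 3 homozygous knockout lines, these and a line lacking tRNA-Phe-1-1 (tRNA-Phe-1-1-/-), on a C57BL/6N background at 10 weeks of age. All the knockouts derived from 1 CRISPR-Cas9 guide, were separated by backcrossing and are constitutive, and the mice received no drug and standard chow. The comparison asks whether the loss of one or the other of these genes leaves a different mRNA profile. Every difference below is on the log2(normalised count + 1) scale, tRNA-Phe-2-1-/- minus tRNA-Phe-3-1-/-, so that a positive value is higher in tRNA-Phe-2-1-/-.

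Phenylalanine tRNA reads the phenylalanine codons with a single GAA anticodon, after it has been charged by phenylalanyl-tRNA synthetase. Mammalian genomes hold several genes for each such tRNA, and copies that share the anticodon but differ elsewhere in the body are called isodecoders. The liver also breaks down most dietary phenylalanine. Replicates were labelled A, B and C in each group. Sources used here do not say more of each animal than this, so p-values measure the spread between these samples.

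The sequences below show how little distinguishes the deleted genes. tRNA-Phe-2-1 lies at chr19:12008545-12008617 (plus strand) and tRNA-Phe-3-1 at chr13:21882885-21882957 (minus strand) in GRCm38.p6, by RefSeq, and both are 73 bases long. tRNA-Phe-1-1 stands for the 5 genes of identical sequence that remain in both lines. Capitals mark the 20 bases of the guide, which match all 7 genes. The letters were read from GRCm39 around the guide match.

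tRNA-Phe-1-1: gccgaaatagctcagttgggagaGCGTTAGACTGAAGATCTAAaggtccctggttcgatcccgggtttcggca
tRNA-Phe-2-1: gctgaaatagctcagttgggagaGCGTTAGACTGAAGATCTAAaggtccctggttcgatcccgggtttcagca
tRNA-Phe-3-1: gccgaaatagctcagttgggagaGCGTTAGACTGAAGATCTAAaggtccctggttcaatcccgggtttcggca

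Counted from 1 at the 5′ end, tRNA-Phe-2-1 differs from tRNA-Phe-3-1 by T3C, G57A and A70G, the tRNA-Phe-2-1 base being given first, which leaves 95.89% identity. tRNA-Phe-1-1 differs from tRNA-Phe-2-1 by C3T and G70A, and from tRNA-Phe-3-1 by G57A alone. Mature tRNA is not measured by these mRNA libraries, and the deposited values hold no check of either deletion.

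The 6 libraries held 37310878 to 51584522 reads over genes. All 12 livers, those of WT and tRNA-Phe-1-1-/- included, entered the fit, and 15856 genes whose mean reached 10 normalised counts were tested. The mean Spearman correlation with the other livers of the group lay between 0.988 and 0.99 for tRNA-Phe-2-1-/- and between 0.981 and 0.983 for tRNA-Phe-3-1-/-, so the tRNA-Phe-3-1-/- livers were the less alike. The 12 hepatocyte markers were all measured and summed to 3456709.7 to 3695125 normalised counts in tRNA-Phe-2-1-/- and 4062614 to 4794166 in tRNA-Phe-3-1-/-.

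No gene passed an adjusted p of 0.05 in limma, 0% of those tested. The lowest adjusted p was 0.107, for Slc39a4. At an unadjusted p under 0.05 there were 509 genes higher in tRNA-Phe-2-1-/- (3.21% of those tested) and 550 lower (3.47%), 1059 in all. The 3 values of one line lay wholly above those of the other for 943 genes higher in tRNA-Phe-2-1-/- (5.95%) and 993 lower (6.26%). An exact test of 3 against 3 cannot give a p below 0.1. edgeR's quasi-likelihood test on the whole reads recovered from the table also called no gene, with 1131 at an unadjusted p under 0.05. DESeq2 on the same reads called 29 genes, 12 higher and 17 lower.

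The median difference was close to 0, and for most genes the interval excluded a large change. For 11960 genes (75.4%) the 95% interval of the difference lay within 1 log2 unit of 0 on either side, and for 6964 (43.9%) within 0.5. Precision followed expression. Among the 6863 genes with a mean of 500 or more the share within 1 unit was 95.3%, and among the 3394 with a mean of 10 to 50 it was 25.5%. Differences of 1 unit were therefore not excluded for most of these weakly expressed genes.

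**Figure D1:**
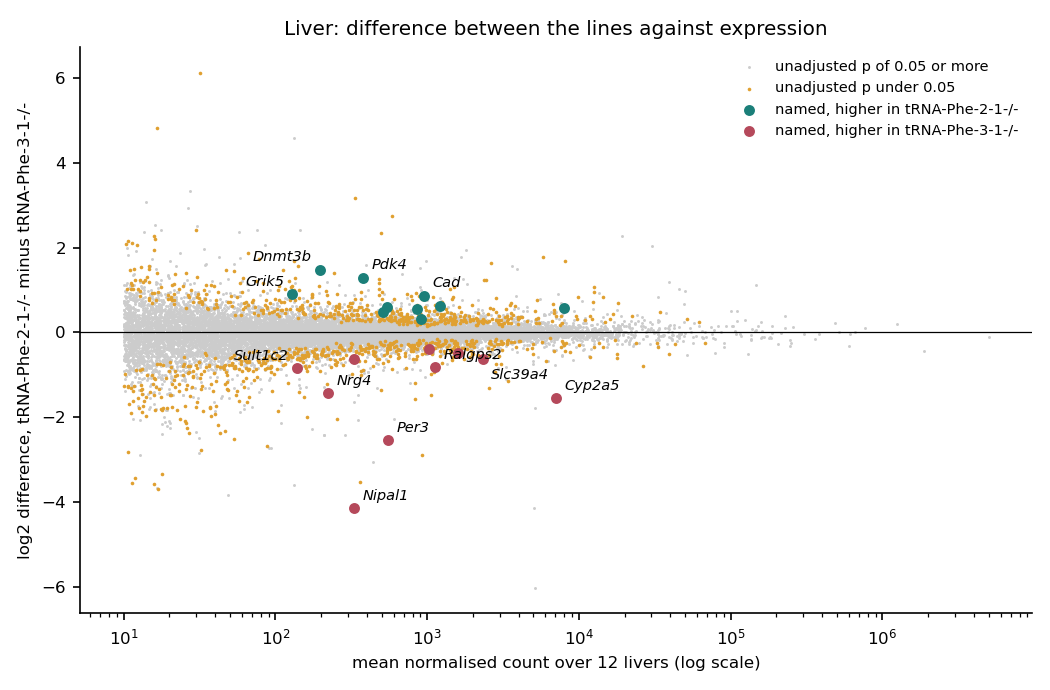
Each point is a gene, with its mean normalised count over 12 livers on a log axis and its log2 difference, tRNA-Phe-2-1-/- minus tRNA-Phe-3-1-/-, on the vertical axis. The 20 protein-coding genes of lowest p (green and red) lie between -4.14 and 1.48, and none passed the adjusted threshold.

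The gene nearest to the threshold was Slc39a4, which encodes a zinc importer. Its normalised counts were 1941, 1983 and 1747 in the tRNA-Phe-2-1-/- livers and 2991, 2847 and 2875 in the tRNA-Phe-3-1-/- livers. WT livers lay in between, at 2403, 2170.4 and 2252. The groups did not overlap, and the difference was -0.62 ± 0.08 (SE), adjusted p = 0.107 in limma and 1.59e-08 in DESeq2. Cyp2a5, a cytochrome P450 that hydroxylates coumarin, had 3541, 5243 and 5852 in the tRNA-Phe-2-1-/- livers and 11124, 18462 and 13256 in the tRNA-Phe-3-1-/- livers. All tRNA-Phe-3-1-/- values were above all tRNA-Phe-2-1-/- values, with a difference of -1.55 ± 0.28 (SE), adjusted p = 0.512. WT livers had 3728, 7182 and 4414, within or near the tRNA-Phe-2-1-/- range.

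Cad, Dnmt3b and Nrip1 were among the genes of lowest p with lower values in tRNA-Phe-3-1-/-. Cad, which carries out the first steps of pyrimidine synthesis, had 837, 996 and 1132 in the tRNA-Phe-2-1-/- livers and 491, 514 and 613 in the tRNA-Phe-3-1-/- livers. The lines did not overlap, and the difference was 0.87 ± 0.14 (SE) (adjusted p = 0.502 in limma). Dnmt3b, a de novo DNA methyltransferase, had 303, 303 and 196 in the tRNA-Phe-2-1-/- livers and 109, 73.1 and 104 in the tRNA-Phe-3-1-/- livers. WT livers had 338, 328 and 298 for Dnmt3b, all above the tRNA-Phe-3-1-/- values. Its difference was 1.48 ± 0.26 (SE). Nrip1, a nuclear receptor corepressor, had 1492, 1460.4 and 1584 in the tRNA-Phe-2-1-/- livers and 912, 1124 and 934 in the tRNA-Phe-3-1-/- livers, a difference of 0.62 ± 0.11 (SE).

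The remaining genes of this direction differed by less than 1 log2 unit except Pdk4. Pdk4, a kinase that inhibits pyruvate dehydrogenase, had 275, 625 and 518 in the tRNA-Phe-2-1-/- livers and 247, 149 and 165 in the tRNA-Phe-3-1-/- livers, and the difference was 1.29 ± 0.30 (SE). WT livers were higher than either line for Pdk4, at 816, 699 and 746. Atf6b, a relative of the endoplasmic reticulum stress factor ATF6, differed by 0.49 ± 0.10 (SE). Clpx, the unfoldase of a mitochondrial protease, differed by 0.56 ± 0.12 (SE). The kainate receptor subunit gene Grik5 differed by 0.91 ± 0.19 (SE) and Arhgap24, a GTPase-activating protein, by 0.60 ± 0.12 (SE). The lowest adjusted p among these 5 was 0.593 in limma.

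Higher in tRNA-Phe-3-1-/- were also a magnesium transporter and an endocrine signal. Nipal1 (magnesium transport) had 11.2, 12 and 10.1 in the tRNA-Phe-2-1-/- livers and 902, 73.1 and 145 in the tRNA-Phe-3-1-/- livers. All tRNA-Phe-2-1-/- values were low, while WT livers had 216, 443 and 1331. The difference was -4.14 ± 0.91 (SE), and liver A of tRNA-Phe-3-1-/- was the highest. Without that liver it was -3.10. Nrg4, an ErbB4 ligand, had 40.1, 51.1 and 100.5 in the tRNA-Phe-2-1-/- livers and 164, 163 and 155 in the tRNA-Phe-3-1-/- livers, a difference of -1.43 ± 0.31 (SE). Here tRNA-Phe-3-1-/- lay within the WT range, 117, 179.9 and 189.

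The other genes of lowest p on this side were Scamp1 (-0.50 ± 0.09 SE), a membrane trafficking protein, Sult1c2 (-0.84 ± 0.17 SE), a sulphotransferase, and Epha1 (-0.39 ± 0.08 SE), an ephrin receptor. Atad2, a bromodomain ATPase, differed by -0.62 ± 0.14 (SE) and Ralgps2, an exchange factor for Ral, by -0.82 ± 0.19 (SE). Of the 20 genes of lowest p, DESeq2 called 20 and limma and edgeR none. The 3 tRNA-Phe-3-1-/- values lay wholly outside the WT range for 12 of the 20 while tRNA-Phe-2-1-/- overlapped it, the reverse held for 3, and both lay outside for 5. Both lines were set against the same WT livers. These genes were chosen for their difference between the lines, which itself favours a line lying outside the WT range. No share over all genes tested stands beside these counts, and which line changed was not tested.

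**Figure D2:**
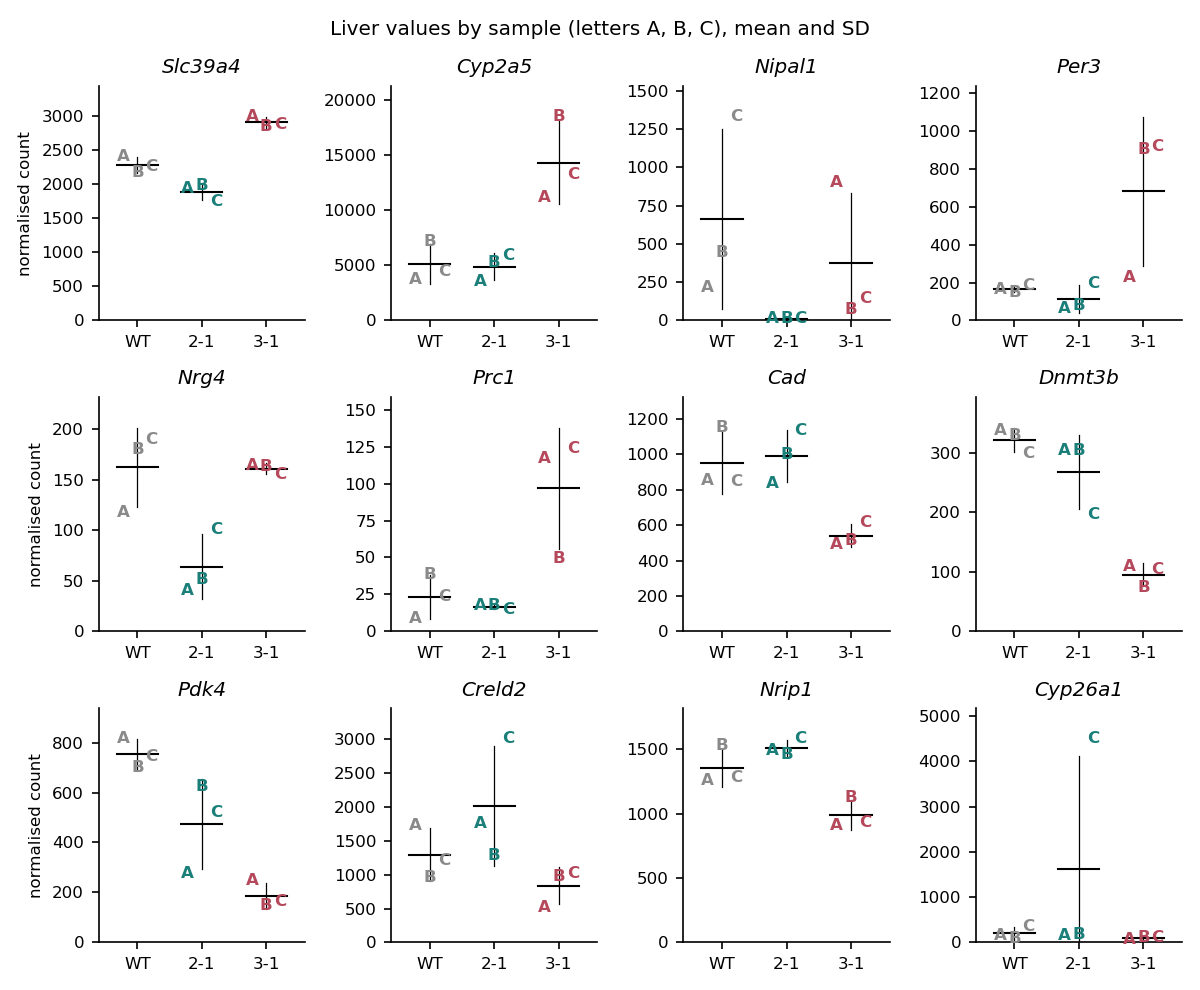
Normalised counts of 12 genes in WT, tRNA-Phe-2-1-/- (2-1) and tRNA-Phe-3-1-/- (3-1) livers, each letter 1 liver, with the mean (horizontal line) and SD (vertical line, cut at 0). Slc39a4 and Cad separate the lines with little scatter, whereas Cyp26a1 rests on liver C of tRNA-Phe-2-1-/- at 4504.

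Among the 10 largest non-overlapping differences was a pair of genes of retinoic acid breakdown. Cyp26a1 and Cyp26b1 encode the retinoic acid hydroxylases. Cyp26a1 had 161, 171 and 4504 in the tRNA-Phe-2-1-/- livers and 71.1, 114 and 113 in the tRNA-Phe-3-1-/- livers, a difference of 2.35 ± 1.03 (SE) that fell to 0.77 without liver C of tRNA-Phe-2-1-/-. Cyp26b1 had 350.1, 576 and 1827 in the tRNA-Phe-2-1-/- livers and 35.5, 65.3 and 206 in the tRNA-Phe-3-1-/- livers, a difference of 3.18 ± 1.38 (SE). Lrat, which esterifies retinol in stellate cells, had 1418, 1247 and 2158 in the tRNA-Phe-2-1-/- livers and 964, 914 and 1125 in the tRNA-Phe-3-1-/- livers (0.65 ± 0.22 SE). It was named as the lowest p of the 11 stellate cell markers, of which 6 were higher and 5 lower, with a median of 0.00. No list of retinoid genes was compiled, so these 3 genes do not describe retinoid genes as a group.

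Others with large values were Derl3, of endoplasmic reticulum-associated degradation (1.56 ± 0.65 SE), Slc34a2, a phosphate transporter (1.73 ± 0.55 SE), and Fam222a (1.88 ± 0.58 SE). On the other side stood Esm1, an endothelial proteoglycan (-2.68 ± 1.14 SE), Gsta1, a glutathione transferase (-1.99 ± 0.63 SE), and Gm379 (-2.51 ± 0.98 SE). Liver A of tRNA-Phe-3-1-/- held the highest value of Esm1, Gsta1 and Gm379, at 220.0, 701 and 199. None of these 8 passed an adjusted p of 0.05 in limma, edgeR or DESeq2, which gave no adjusted p for Cyp26a1.

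Genes for the making, processing and charging of tRNA and for ribosome rescue were examined as a list. It held 3 phenylalanyl-tRNA synthetase genes and 9 genes for modification of the tRNA-Phe anticodon loop. The others serve tRNA or the ribosome in general. Of 55 genes measured, 1 was higher (background 3.21%) and 0 lower (background 3.47%) at an unadjusted p under 0.05, with a median of 0.03 against -0.00 over all genes tested. Without liver B of tRNA-Phe-3-1-/- 5 were higher, without liver A of that line 0 were higher and 1 lower, and without liver A of tRNA-Phe-2-1-/- 0 were either. The interval lay within 0.5 of 0 for 40 of the 55 and within 1 for 53. Farsa and Farsb, the cytosolic phenylalanyl-tRNA synthetase subunits, differed by 0.14 ± 0.13 (SE) and 0.08 ± 0.10 (SE), and the mitochondrial Fars2 by 0.09 ± 0.13 (SE). Farsa had 843, 667 and 736 in the tRNA-Phe-2-1-/- livers and 619.5, 774 and 639 in the tRNA-Phe-3-1-/- livers. The gene below the threshold was Elac2, which trims the 3′ end of tRNA precursors, with 1100.1, 1029 and 1125 in the tRNA-Phe-2-1-/- livers and 944, 1007 and 961 in the tRNA-Phe-3-1-/- livers (0.16 ± 0.07 SE, unadjusted p = 0.0498). Ribosomal protein genes were tighter still: 80 of 85 had intervals within 0.5, and the median was -0.03.

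Of 19 genes of phenylalanine and tyrosine breakdown and uptake, 0 were higher and 3 lower at an unadjusted p under 0.05 (background 3.47%). Gch1, which starts tetrahydrobiopterin synthesis, had 4253, 4239.8 and 4958 in the tRNA-Phe-2-1-/- livers and 5822, 6803 and 6418 in the tRNA-Phe-3-1-/- livers (-0.50 ± 0.15 SE, adjusted p = 0.644). The amino acid transporter genes Slc38a4 and Slc7a5 differed by -0.35 ± 0.10 (SE) and -0.73 ± 0.26 (SE). Of 25 targets and sensors of the amino acid and unfolded protein response around ATF4, 0 were higher (background 3.21%) and 2 lower (background 3.47%). These were Ddit3 (-0.59 ± 0.19 SE) and Eif2ak3 (-0.64 ± 0.21 SE), a stress transcription factor and the kinase PERK.

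Cell division genes formed the group with the largest median. Of 32 mitosis genes, 31 had a lower value in tRNA-Phe-2-1-/-, 13 of them at an unadjusted p under 0.05 (background 3.47%) and 9 without overlap (background 6.26%), with a median of -1.19. Prc1, a spindle midzone organiser, had 17.6, 17.4 and 14.7 in the tRNA-Phe-2-1-/- livers and 117, 49.5 and 124 in the tRNA-Phe-3-1-/- livers. Its difference was -2.37 ± 0.63 (SE), adjusted p = 0.644 in limma and 0.0473 in DESeq2. The kinetochore motor gene Cenpe had 19.2, 26.1 and 16.6 in the tRNA-Phe-2-1-/- livers and 122, 48.4 and 86.5 in the tRNA-Phe-3-1-/- livers, and the survivin gene Birc5 had 7.21, 34.8 and 11.1 in the tRNA-Phe-2-1-/- livers and 85.5, 28.1 and 132 in the tRNA-Phe-3-1-/- livers. Cenpe did not overlap between the lines, and Birc5 did.

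The mitosis values rested on livers A and C of tRNA-Phe-3-1-/-. The mean deviation of the 32 genes from their 12-liver means was 1.28, -0.26 and 1.56 in tRNA-Phe-3-1-/- livers A, B and C, and -0.40, -0.20 and -0.24 in tRNA-Phe-2-1-/-. Liver B of tRNA-Phe-3-1-/- was thus within the tRNA-Phe-2-1-/- range. Leaving out liver A or C lowered the count from 13 to 6 or 5, and leaving out B raised it to 25. With edgeR and DESeq2 on the recovered reads it was 22 in each. Liver A of tRNA-Phe-3-1-/- was also the highest for Kupffer cell markers, which summed to 23133, 13933 and 18791 in tRNA-Phe-3-1-/- and 14453 to 15922 in tRNA-Phe-2-1-/-. All 11 Kupffer markers had lower values in tRNA-Phe-2-1-/-, with a median of -0.30, and 1 was at an unadjusted p under 0.05. Their part in the result was not tested. In bulk tissue, fewer cells of a type and less RNA per cell cannot be told apart.

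Replication genes leaned the same way with smaller medians. Among 34 genes of DNA replication and the G1/S transition, 1 was higher (background 3.21%) and 5 lower (background 3.47%), with a median of -0.18. The lower count was 2 with the replicate block or without liver A of tRNA-Phe-2-1-/-, 3 without liver C of tRNA-Phe-2-1-/- or without A or C of tRNA-Phe-3-1-/-, and 8 without liver B of tRNA-Phe-3-1-/-, where the median was -0.33. Ccne1, cyclin E1, had 9.62, 10.9 and 8.3 in the tRNA-Phe-2-1-/- livers and 29.8, 41.6 and 36.2 in the tRNA-Phe-3-1-/- livers (-1.79 ± 0.36 SE). Gins2, of the replicative helicase, had 4.81, 19.6 and 10.1 in the tRNA-Phe-2-1-/- livers and 60.5, 43.9 and 40.2 in the tRNA-Phe-3-1-/- livers (-2.14 ± 0.44 SE). Neither overlapped, and DESeq2 called both. E2f8, a repressor of E2F targets, went the other way at 1.28 ± 0.51 (SE). Of 55 replication-dependent histone genes, 0 were higher and 7 lower, with a median of -0.25. Without liver B of tRNA-Phe-3-1-/- 16 were lower, without A or C of that line 3 each, and without liver A of tRNA-Phe-2-1-/- 4. Histone mRNAs of this kind lack poly(A) tails and form near-identical families, so their counts are uncertain.

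A promoter of 1 mitosis gene is given to show a motif that many of the group hold. The cell cycle homology region, TTTGAA on either strand, was sought in RefSeq promoters of 300 bases, and a gene may have several. At least 1 promoter held it for 21 of 27 mitosis genes (77.8%) and for 20.2% of all 27025 genes with a promoter. The Prc1 promoter (chr7:80294201-80294500, plus strand, GRCm38.p6, RefSeq) reads as follows, with the motif in capitals.

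Prc1: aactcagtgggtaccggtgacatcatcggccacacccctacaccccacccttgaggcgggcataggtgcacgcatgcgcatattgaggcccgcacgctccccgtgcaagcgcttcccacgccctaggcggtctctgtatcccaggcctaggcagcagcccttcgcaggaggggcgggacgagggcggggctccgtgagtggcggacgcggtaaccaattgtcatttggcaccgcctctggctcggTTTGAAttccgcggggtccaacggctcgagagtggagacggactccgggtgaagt

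**Figure D3:**
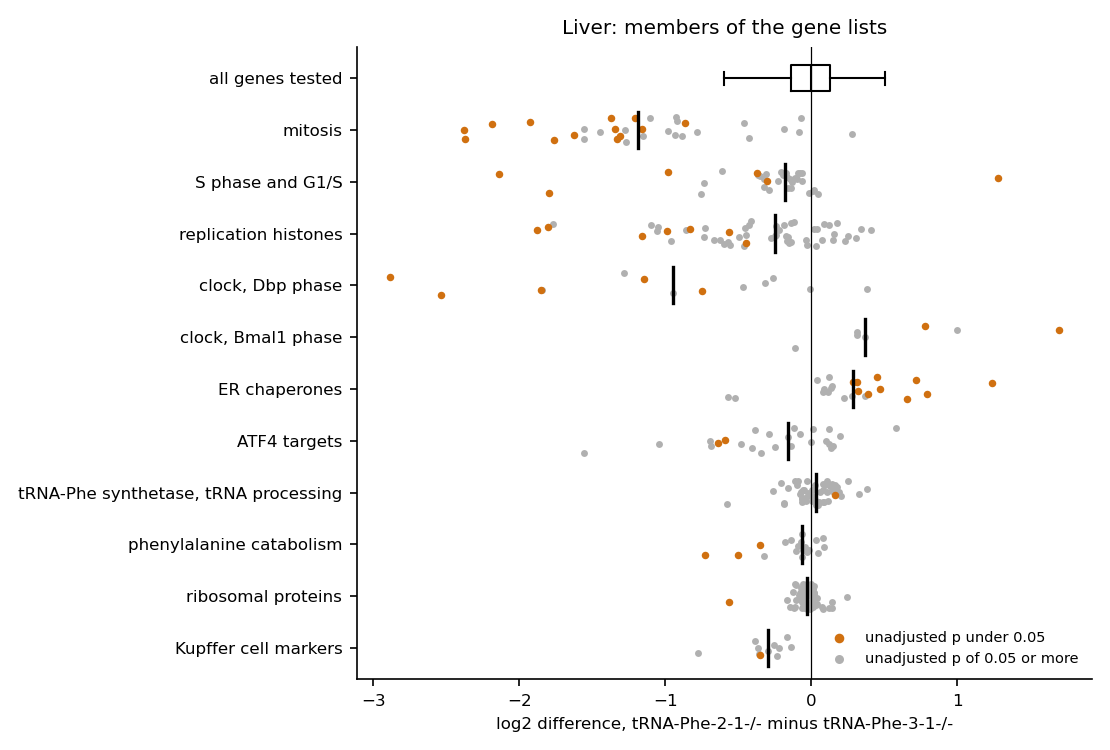
Log2 differences of the members of 11 gene lists (points, shifted vertically at random), with the list median as a black bar. The box gives all 15856 genes tested (quartiles, whiskers at the 5th and 95th percentiles). Mitosis members lie to the left and endoplasmic reticulum (ER) chaperones to the right, and orange points have an unadjusted p under 0.05.

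Among the lists, ER folding factors held the most members with higher values in tRNA-Phe-2-1-/- at an unadjusted p under 0.05. Of 22, 20 had a higher value and 10 were higher at an unadjusted p under 0.05 (background 3.21%), with a median of 0.28. Creld2, an ER stress-induced isomerase, had 1751, 1289 and 3008 in the tRNA-Phe-2-1-/- livers and 521, 978 and 1018 in the tRNA-Phe-3-1-/- livers. The lines did not overlap, and the difference was 1.24 ± 0.35 (SE) (adjusted p = 0.644). Sdf2l1, a partner of BiP, had 1339.7, 1119 and 1812 in the tRNA-Phe-2-1-/- livers and 809.7, 668 and 966 in the tRNA-Phe-3-1-/- livers (0.79 ± 0.21 SE), and the disulfide isomerase gene Pdia4 had 11316, 10850.1 and 13983 in the tRNA-Phe-2-1-/- livers and 8644, 8739 and 10128 in the tRNA-Phe-3-1-/- livers (0.39 ± 0.11 SE). Hspa5, which encodes BiP itself, differed by 0.47 (unadjusted p = 0.0304). Herpud1 and Dnajb9 were the exceptions, at -0.57 and -0.52.

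By mean deviation, ER chaperones were -0.07, -0.19 and 0.15 in livers A, B and C of tRNA-Phe-2-1-/- and -0.51, -0.29 and -0.15 in tRNA-Phe-3-1-/-. The lines overlapped, liver C of tRNA-Phe-2-1-/- was the highest and liver A of tRNA-Phe-3-1-/- the lowest. Leaving out liver C of tRNA-Phe-2-1-/- lowered the count from 10 to 5, leaving out liver A of tRNA-Phe-3-1-/- to 6, and the median stayed at 0.18 or above without any 1 liver.

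The ER stress element is CCAAT and CCACG separated by 9 bases of any kind, on either strand. At least 1 promoter held it for 8 of 20 of these genes (40%) and for 37 of all 27025 genes with a promoter (0.137%). The Creld2 promoter holds it on the reverse strand, 126 bases before the start (chr15:88819396-88819695, plus strand, GRCm38.p6, RefSeq). A match describes the letters and is not evidence of binding.

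Creld2: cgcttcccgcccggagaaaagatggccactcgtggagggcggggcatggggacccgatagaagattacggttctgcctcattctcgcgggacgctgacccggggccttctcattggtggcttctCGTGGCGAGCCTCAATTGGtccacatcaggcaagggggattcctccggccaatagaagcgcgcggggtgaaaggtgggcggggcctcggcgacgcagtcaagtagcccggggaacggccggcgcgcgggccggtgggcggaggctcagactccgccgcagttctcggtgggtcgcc

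Circadian genes had values in opposite directions by phase. Of 13 genes that peak with Dbp, 0 were higher and 5 lower at an unadjusted p under 0.05 (background 3.47%), with a median of -0.94. Per3, a period gene, had 60.9, 78.3 and 196 in the tRNA-Phe-2-1-/- livers and 227, 904 and 918 in the tRNA-Phe-3-1-/- livers (-2.54 ± 0.60 SE). Dbp, an output transcription factor, had 36.9, 84.8 and 383 in the tRNA-Phe-2-1-/- livers and 170.0, 2173 and 1343 in the tRNA-Phe-3-1-/- livers (-2.88 ± 0.98 SE), and its relative Tef had 1296, 1505 and 2487 in the tRNA-Phe-2-1-/- livers and 2011, 5216 and 5036 in the tRNA-Phe-3-1-/- livers (-1.15 ± 0.40 SE). Of 7 genes of the Bmal1 phase, 2 were higher (background 3.21%) and 0 lower, with a median of 0.37, among them Nfil3 (0.78 ± 0.27 SE) and Npas2 (1.69 ± 0.74 SE).

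Among the 6 livers of these lines, livers B and C of tRNA-Phe-3-1-/- had the highest Dbp-phase and the lowest Bmal1-phase values. The mean deviation of the Dbp-phase genes was -0.84, 1.01 and 0.38 in tRNA-Phe-3-1-/- livers A, B and C and -1.24, -1.03 and -0.40 in tRNA-Phe-2-1-/-. The time of day at which each liver was taken is not given in the sources used here, so time and genotype cannot be told apart. Without liver B of tRNA-Phe-3-1-/- the count of lower Dbp-phase genes was 1 of 13, without liver C 3 and without liver A 7, and without liver A of tRNA-Phe-2-1-/- it was 2. The count of higher Bmal1-phase genes was 0 without liver B or C of tRNA-Phe-3-1-/- or liver B of tRNA-Phe-2-1-/-, 1 without liver A of tRNA-Phe-2-1-/-, and 5 without liver A of tRNA-Phe-3-1-/-, where the median was 0.64. The mitosis and Dbp-phase values were highest in different tRNA-Phe-3-1-/- livers, A and C for mitosis and B and C for the Dbp phase.

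**Figure D4:**
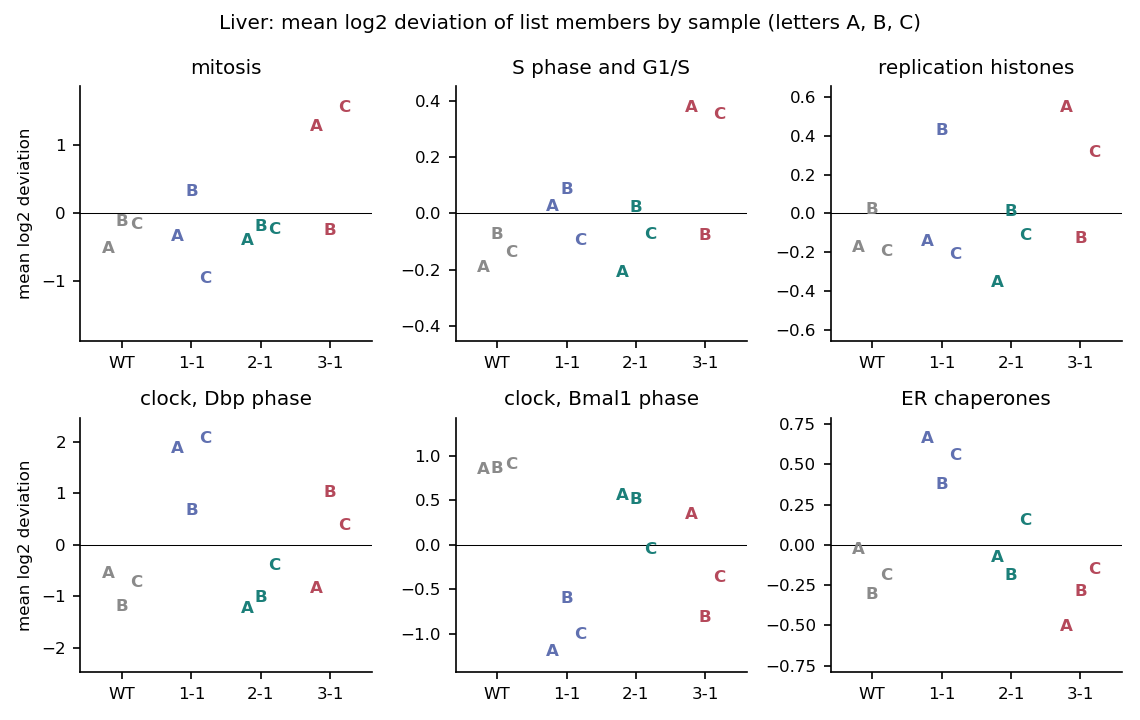
Mean log2 deviation of the members of 6 gene lists from their 12-liver means, by liver (letters A, B and C) in WT, tRNA-Phe-1-1-/- (1-1), tRNA-Phe-2-1-/- (2-1) and tRNA-Phe-3-1-/- (3-1). Livers A and C of tRNA-Phe-3-1-/- stand high for mitosis, at 1.28 and 1.56. For the Dbp-phase clock genes livers B and C of that line stand at 1.01 and 0.38, and liver A, at -0.84, lies within the WT range.

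Metabolic lists held few genes below the unadjusted threshold, though in fatty acid synthesis and storage the share higher exceeded the background. In fatty acid synthesis and storage, 4 of 32 were higher (background 3.21%) and 1 lower (background 3.47%), with a median of 0.10. Without liver C of tRNA-Phe-3-1-/- 2 were higher and 4 lower, without liver C of tRNA-Phe-2-1-/- 2 were higher, and the median ran from 0.04 to 0.18 over the livers left out in turn. Elovl3, a fatty acid elongase, had 27865, 21974 and 18898 in the tRNA-Phe-2-1-/- livers and 8537, 10656 and 13862 in the tRNA-Phe-3-1-/- livers (1.07 ± 0.33 SE), and Fads2, a desaturase, had 15042, 12659.6 and 12894 in the tRNA-Phe-2-1-/- livers and 21154, 20275 and 16774 in the tRNA-Phe-3-1-/- livers (-0.52 ± 0.14 SE). In cholesterol synthesis 1 of 22 was higher, Insig2 (0.46 ± 0.12 SE), which retains SREBP in the ER, and all 22 intervals lay within 1. In PPARα targets and oxidation 1 of 27 was higher and 2 lower. The lower genes were Cyp4a31 (-1.41 ± 0.43 SE) and Cpt1a (-0.35 ± 0.12 SE), which imports fatty acids into mitochondria.

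For glucose and insulin signals, 1 of 23 was higher (background 3.21%) and 2 lower (background 3.47%). The lower genes were Igfbp2 at -0.59 ± 0.18 (SE) and Fbp1 at -0.25 ± 0.11 (SE), and G6pc1, glucose-6-phosphatase, was higher at 0.94 ± 0.42 (SE). Sex-biased and growth hormone genes gave 4 higher and 1 lower of 37. Of 18 genes raised in male livers 14 had higher values in tRNA-Phe-2-1-/-, 3 of them at an unadjusted p under 0.05, with a median of 0.45, and of 8 raised in female livers 7 had lower values, 1 of them below that threshold, with a median of -1.03. The male genes include Mup1, Mup7, Mup11 and Mup20, which are counted again among the major urinary protein genes below. The higher genes included Stat5a (0.51 ± 0.20 SE) and Cyp4a12a (0.39 ± 0.15 SE). Among 41 cytochrome P450 genes of families 1 to 3, 0 were higher and 4 lower, with Cyp2g1 at -3.56 ± 0.77 (SE) and Cyp2c23 at -0.47 ± 0.14 (SE). All 20 major urinary protein genes had higher values in tRNA-Phe-2-1-/-, with a median of 1.08 and none at an unadjusted p under 0.05. They are near-identical copies that share reads, and liver C of tRNA-Phe-3-1-/- was as high as tRNA-Phe-2-1-/- (Mup18 had 1142, 1393 and 1811 in the tRNA-Phe-2-1-/- livers and 231, 136 and 2791 in the tRNA-Phe-3-1-/- livers).

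Smaller groups held 1 or 2 such genes each, against a background of 3.21% higher and 3.47% lower. With so few members, these counts are not read as results about the groups. Heat shock genes gave 2 higher of 15, Hspb1 (0.65 ± 0.20 SE) and Hsp90aa1 (0.37 ± 0.16 SE), both cytosolic chaperones. Immediate early genes gave 1 higher and 1 lower of 15, the phosphatase gene Dusp1 (1.25 ± 0.55 SE) and Junb (-0.94 ± 0.42 SE). Glucocorticoid-induced genes gave 1 lower of 16, Tdo2 (-0.27 ± 0.10 SE), which opens tryptophan breakdown. Acute phase genes gave 1 lower of 25, Socs3 (-0.91 ± 0.31 SE), a brake on cytokine signalling. Ornithine and urea genes gave 1 lower of 12, Oat (-0.60 ± 0.21 SE). In Nrf2 and xenobiotic receptor targets, 2 of 23 were lower, Cyp2a5 and Gsta1.

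The 22 interferon-stimulated genes, 19 bile acid genes and 9 mitochondrially encoded genes measured had none below the threshold, with medians of -0.24, 0.05 and 0.10. Hepatocyte zonation genes were split by role. All 15 periportal genes had lower values in tRNA-Phe-2-1-/-, with a median of -0.43, 6 of them without overlap (background 6.26%) and 2 at an unadjusted p under 0.05 (background 3.47%), Aldh1b1 (-1.30 ± 0.47 SE) and Hsd17b13 (-0.43 ± 0.17 SE). Of 15 pericentral genes 9 had higher and 6 lower values, with a median of 0.08 and 1 lower at an unadjusted p under 0.05. Whether the roles differ was not tested.

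Most marker lists of other cells had more members with lower than higher values in tRNA-Phe-2-1-/-. Lower values were found for 3 of 3 neutrophil, 5 of 6 T and NK cell, 6 of 7 B and plasma cell, 6 of 6 erythroid and 7 of 10 sinusoidal endothelial markers, and higher values for 5 of 6 cholangiocyte and 6 of 11 stellate cell markers. B and plasma cell markers gave 0 higher (background 3.21%) and 2 lower (background 3.47%) of 7. Their summed level was 183 to 219 in tRNA-Phe-2-1-/- and 268 to 380.4 in tRNA-Phe-3-1-/-. The sinusoidal endothelial list had a median of -0.07 and 1 member below the threshold, Lyve1 (-0.86 ± 0.26 SE). The erythroid list had a median of -0.13 and 1 member below it, the anion exchanger gene Slc4a1 (-1.76 ± 0.58 SE), and its summed levels overlapped, at 19255 to 38931 in tRNA-Phe-2-1-/- and 26909 to 33339 in tRNA-Phe-3-1-/-. T and NK cell, neutrophil and cholangiocyte markers had 0 below the threshold. Of adipocyte, pancreas, muscle and gut markers 1, 1, 2 and 1 were tested, with 0 below the threshold. Germ cell markers were not tested, as none reached the minimum mean.

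The genes beside each deletion were examined next. Within 1000000 bases of tRNA-Phe-2-1, 27 genes were measured, with 1 higher (background 3.21%) and 4 lower (background 3.47%) and a median of -0.17. Without liver A of tRNA-Phe-3-1-/- 0 were lower and the median was -0.03, and without liver A or C of tRNA-Phe-2-1-/- 2 were lower. The nearest were Osbp, an oxysterol-binding protein, with 2619, 2589 and 2828 in the tRNA-Phe-2-1-/- livers and 2236, 2527 and 2427 in the tRNA-Phe-3-1-/- livers (0.16 ± 0.09 SE), and Patl1, a decay factor, with 356, 332 and 338 in the tRNA-Phe-2-1-/- livers and 381, 384 and 362 in the tRNA-Phe-3-1-/- livers (-0.14 ± 0.13 SE). Neither gene overlapped between the lines, and they lay in opposite directions. Of the 4 lower genes, 3 belong to the Ms4a cluster of immune cell genes, whose 9 measured members had a median of -0.40. Their mean deviation was 0.65, -0.01 and 0.14 in livers A, B and C of tRNA-Phe-3-1-/-, highest in liver A. Among the livers of these lines, liver A was also the highest for Kupffer cell, B and plasma cell, and T and NK cell markers. Ms4a1, 1 of the 3 lower genes, is itself counted among the B and plasma cell markers. The part of any of those cells was not tested.

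tRNA-Phe-3-1 lies in the histone cluster on chromosome 13. Of 27 genes measured there, 1 was higher (background 3.21%) and 2 lower (background 3.47%), with a median of -0.44. Without liver B of tRNA-Phe-3-1-/- 10 were lower, and without liver A or without liver C of that line 1 was. The 15 histone genes among them had a median of -0.63 with 14 of 15 lower in tRNA-Phe-2-1-/-, and the 12 others had a median of 0.16. The 40 histone genes elsewhere had a median of -0.16. H3c11 had 38.5, 31.5 and 31.3 in the tRNA-Phe-2-1-/- livers and 111, 50.6 and 78.4 in the tRNA-Phe-3-1-/- livers (-1.16 ± 0.48 SE), and H2ac11 had 2.4, 8.7 and 6.45 in the tRNA-Phe-2-1-/- livers and 25, 12.4 and 34.2 in the tRNA-Phe-3-1-/- livers (-1.88 ± 0.52 SE). The local histones followed livers A and C of tRNA-Phe-3-1-/-, with mean deviations of 0.95, -0.24 and 0.50 in livers A, B and C, as the mitosis genes did. The histones elsewhere were also higher in A and C, at 0.40, -0.09 and 0.25 in the same livers. Of the 15 local histones, 2 were lower at an unadjusted p under 0.05 (background 3.47%). The count was 1 without liver A or without liver C of tRNA-Phe-3-1-/-, and 9 without liver B. Without liver A the median of the local histones was -0.39.

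**Figure D5:**
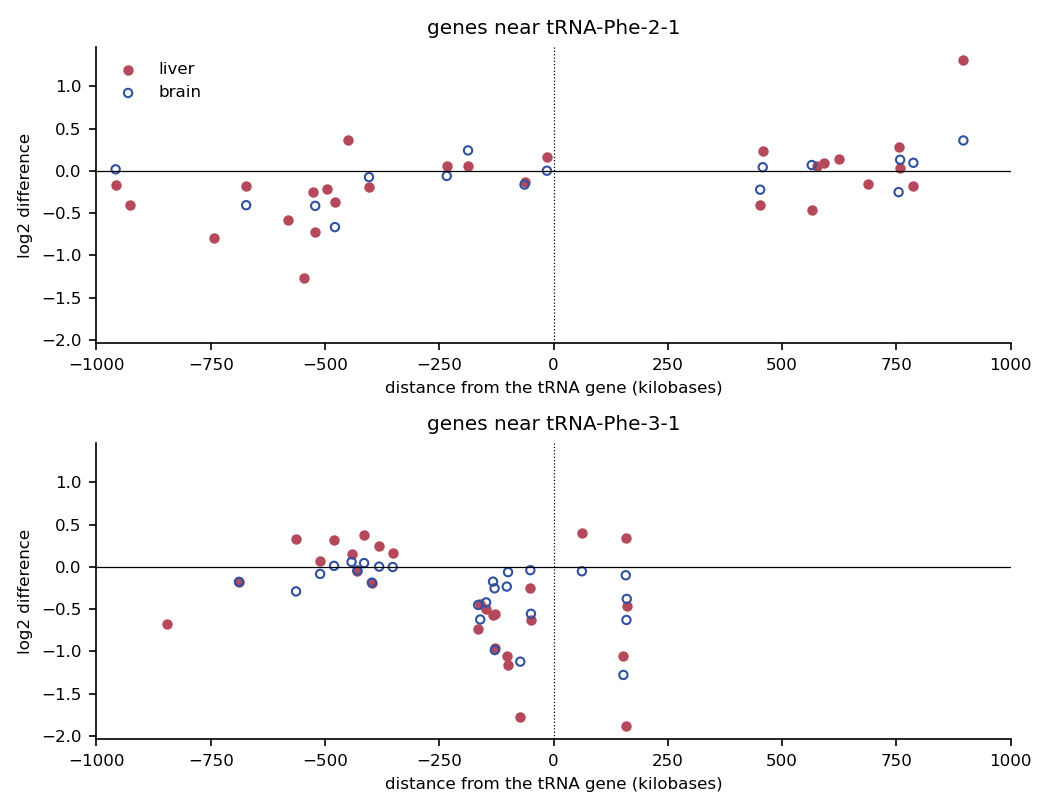
Log2 differences of genes tested in liver against distance from the deleted gene in kilobases, in liver (filled) and brain (open, where tested). Near tRNA-Phe-3-1, 14 of 15 histone genes lie below 0 in liver, down to -1.88 for H2ac11.

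The same lines were compared in brain, where each group also had 3 samples. No gene of 19228 passed in limma, and 1107 were higher (5.76%) and 803 lower (4.18%) at an unadjusted p under 0.05. DESeq2 called 166 in brain and edgeR none. Of the 20 liver genes of lowest p, 17 were tested in brain. The sign was the same for 9, and Ralgps2 alone had an unadjusted p under 0.05 with the same sign in limma (-0.26 ± 0.11 SE). Per3 had the opposite sign (0.23 ± 0.09 SE).

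The same gene groups were counted in brain. Of 22 ER folding genes, 0 were higher (brain background 5.76%) and 0 lower (4.18%), with a median of 0.02 and 21 intervals within 0.5. Mitosis genes gave 0 higher and 5 lower of 28 (brain background 4.18%), with a median of -0.36, and replication-dependent histones 0 higher and 13 lower of 62 (brain background 4.18%), with a median of -0.23. Dbp-phase clock genes gave 2 higher and 2 lower of 13. Near tRNA-Phe-3-1 in brain, 0 were higher and 4 lower of 33, and near tRNA-Phe-2-1, 1 was higher of 16. The 19 histone genes near tRNA-Phe-3-1 had a median of -0.42 in brain, with 18 lower, 3 of them at an unadjusted p under 0.05. The 43 histone genes elsewhere had a median of -0.17, with 38 lower, 10 of them at an unadjusted p under 0.05. Whether liver and brain differ in any of these was not tested.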

How the data were processed

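RNA was taken from liver and brain of 4 genotypes with 3 samples each, 24 libraries in all, and the 6 livers of the knockout lines compared here were grouped by their titles. Per the labels and the study's methods, the authors trimmed reads with Trim Galore and cutadapt, aligned with STAR to GRCm38.p6, quantified with Salmon and normalised each tissue with DESeq2. The deposited values are normalised counts, a size-factor-scaled signal. For all samples they were whole multiples of 1 step within a tolerance of 0.1 read (100% of values above 0), and whole reads were recovered from them for the count tests, which were run as alternatives. The deposited comparison tables hold means, log2 fold changes, their errors and s-values and were not used. All columns of the value tables were used.

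Symbols for 93.2% of the 55434 Ensembl identifiers came from GENCODE, and positions from RefSeq on GRCm38.p6. Genes with a mean of at least 10 over the 12 livers were fitted with limma (3.58.1, R 4.3.3) on log2(value + 1) with a mean-variance trend, 4 genotype groups and two-sided Benjamini-Hochberg adjustment over all genes. edgeR 4.0.16 and DESeq2 1.42.0 gave alternatives. Each test was checked on simulated data. Replicate pairs differed by at least 32.9 times the counting variance (chi-square per degree of freedom), so none was a duplicate. Counts cover counting error only, at 37310878 to 51584522 reads.

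The named genes were the 10 protein-coding genes of lowest p in each direction with a mean of at least 50, the 5 largest non-overlapping differences each way, the 3 of lowest p of each list, the synthetase genes, those within 100000 bases of a deletion, and the lowest p of a marker list. The lists and markers were compiled from textbook roles, and 1 marker (Ahsp) had no matching symbol. A few genes that met these rules are not reported here. The comparison, members and lists were chosen with earlier results of these data known. Replicate letters are shared across groups. In liver, same-letter livers of the lines correlated in their deviations from the group means at 0.08, 0.02 and 0.09. In brain the values were 0.13, 0.21 and 0.49, but brain A of tRNA-Phe-2-1-/- correlated better with brain B of tRNA-Phe-3-1-/-, at 0.26. Whether the letters pair the animals in either tissue is not known, so the main fits used no pairing.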

Additional observations from a re-analysis of the deposited data

Results flagged for a closer look

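Among the named genes tested in both tissues, 3 had no overlap between the lines in liver and none in brain, in opposite directions. Over all genes tested, the lines did not overlap for 12.2% in liver and 12.7% in brain, both directions together. Many named genes were chosen by their low p in liver, so these 3 are not read as a result about the tissues. Cad differed by 0.868 in liver and by -0.32 in brain, Per3 by -2.54 and 0.23, and Ddit3 by -0.594 and 0.27. Whether the tissues differ was not tested for any of them, and none passed an adjusted p of 0.05 in limma in either tissue. Cyp26a1 showed the same pattern but was below the minimum mean in brain and was not tested there, with 0, 1.12 and 0 in the tRNA-Phe-2-1-/- brains and 14.0, 5.24 and 13.8 in the tRNA-Phe-3-1-/- brains, against a higher level in tRNA-Phe-2-1-/- livers. Groups of 3 samples are too small for the check of single samples that stand apart.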

How the results depend on the processing

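No gene passed in liver under limma with another pseudocount, a mean of at least 50, quantile or trimmed mean rescaling, no variance trend, sample weights, the replicate block (0 called, 988 at an unadjusted p under 0.05, against 1059) or without any 1 of the 6 livers, nor in edgeR. Without a filter 1 gene (Gm42421) passed, in the 6 livers alone 1 (Gm10132), and in DESeq2 29, of which Gm10132 and Gm12481 had fitted differences of 22.7 and 21.5 and 0 reads in every tRNA-Phe-3-1-/- liver. The cause was not tested. Without a filter 1682 genes had an unadjusted p under 0.05. Without 1 liver the genes with no overlap numbered 3161 to 4319, since fewer samples remain. In brain DESeq2 called 166, no variance trend 1, the 6 brains alone 6, and leaving out 1 brain 0 to 2, the 2 being without tRNA-Phe-3-1-/- brain B. The replicate block changed no call there (0 called, 2083 at an unadjusted p under 0.05, against 1910).

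Over 118 named genes and their alternatives, 2082 of 2110 values kept their sign and side of the threshold, 24 passed it in DESeq2 only, and 4 changed sign without being called, 1 for Fars2 and 3 for Zfp184. Of 29 list medians, 520 of 522 alternatives moved by less than the replicate SD. The exceptions, both without tRNA-Phe-3-1-/- liver A, were bile acid genes at -0.10 and genes near tRNA-Phe-3-1 at -0.15. Livers A and C of tRNA-Phe-2-1-/- correlated best with the same letter of tRNA-Phe-3-1-/-, at 0.08 and 0.09, and liver B with liver C, at 0.04. Depth limits weakly expressed genes most, with 25.5% of intervals within 1 log2 unit at means of 10 to 50.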
